A study of Mus musculus with 40 samples.

Results

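Nuclear hormone receptors are transcription factors that bind short DNA elements, and most are switched by a small lipid-soluble ligand such as a steroid, a retinoid, an oxysterol, a bile acid or vitamin D. The genes described here are 31 receptor genes on the autosomes, taken from a list of gene names and all found in the annotation, out of 20807 autosomal protein-coding genes. The list leaves out the PPAR, thyroid hormone receptor, ERR, NR1D and NR4A genes and all RXR genes other than Rxrb. For each gene, peaks of 4 histone marks were sought within 1000 bp of any annotated transcription start, and H3K27ac was followed along the gene body.

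The peaks came from ChIP-seq of brown adipose tissue from wild type C57BL/6N mice aged 20 weeks, with 2 mice in each of 4 conditions. Mice 1 and 2 were kept warm on normal chow diet (NCD), mice 4 and 5 were kept in the cold on NCD, mice 7 and 8 were kept warm on high-fat diet (HFD), and mice 10 and 11 were kept in the cold on HFD. HFD was fed for the last 12 weeks, and cold meant 4 °C for the last 24 h. Each mouse had 1 peak list for each of the 4 marks, so that there were 32 lists beside 8 inputs. The labels do not give the temperature of the warm mice. The depot was named as interscapular in the methods and as inguinal in the design text.

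In this assay H3K4me3 marks promoters that are in use or poised, H3K27ac marks active promoters and enhancers, H3K4me1 is typical of enhancers, and H3K27me3 is laid down by the Polycomb system at silenced developmental genes. In brown fat, glucocorticoid, mineralocorticoid, retinoic acid and oxysterol receptors have known roles in fat cell formation, lipid handling and heat production, while the bile acid and xenobiotic receptors are best known from liver and gut. A promoter can carry H3K4me3 and H3K27me3 at once, in the same or in different cells of a tissue.

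The lists differed widely in length, and read depth is not given by the files, which hold peaks only. H3K4me3 lists held 13517 to 24104 peaks and H3K27ac lists 3224 to 40604. H3K4me1 lists held 12 to 27568 peaks and H3K27me3 lists 20 to 6428, with 1392 or more H3K27me3 peaks in mice 5 and 11 alone and at most 309 in the others. Mouse 7 had the shortest H3K4me3, H3K27ac and H3K4me1 lists. As a check of the tissue, all 10 brown adipocyte markers (Ucp1, Cidea and Pparg among them) carried H3K4me3 and H3K27ac in at least 4 mice. So did 5 of 5 endothelial markers, 1 of 6 macrophage markers (Cd14) and none of the muscle, fibroblast, hepatocyte or neuron markers. All 4 fibroblast markers nevertheless had H3K4me3 in at least 4 mice. Of 6 skeletal muscle markers, 4 (Myod1 and Ckm among them) had no peak of any mark at a start, Pax7 had H3K27me3 in 1 mouse, and Acta1 had H3K4me3 in all 4 NCD mice and in no HFD mouse. None of the 3 hepatocyte and 3 neuron markers had H3K4me3, and the neuron markers had H3K27me3 in 1 or 2 mice. In bulk tissue, fewer marked cells and less of a mark per cell cannot be told apart.

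Of the 31 receptor genes, 15 were active (H3K4me3 and H3K27ac each in at least 4 of 8 mice and no H3K27me3), which is 48.4% of them beside 40.3% of all autosomal protein-coding genes. These were Nr1h2, Nr1h3, Nr2c1, Nr2c2, Nr2f2, Nr2f6, Nr3c1, Nr3c2, Nr6a1, Rara, Rarb, Rarg, Rora, Rorb and Rxrb. Another 4 (12.9%, beside 17.5% of all genes) had H3K4me3 without H3K27ac: Nr2f1, Vdr, Esr1 and Esr2. Nr5a2 and Pgr were mixed, with H3K4me3 in at least 4 mice and H3K27me3 in at least 1 (6.45%, beside 4.05%). Nr2e1 and Nr5a1 were repressed, with H3K27me3 in at least 1 mouse and H3K4me3 in fewer than 4 (6.45%, beside 3.2%). The other 8 were unmarked (25.8%, beside 34.9%): Nr1h4, Nr1h5, Nr1i2, Nr1i3, Nr2e3, Nr0b2, Hnf4a and Hnf4g. The shares of the classes therefore lay within 10 percentage points of those of all genes.

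**Figure D1:**
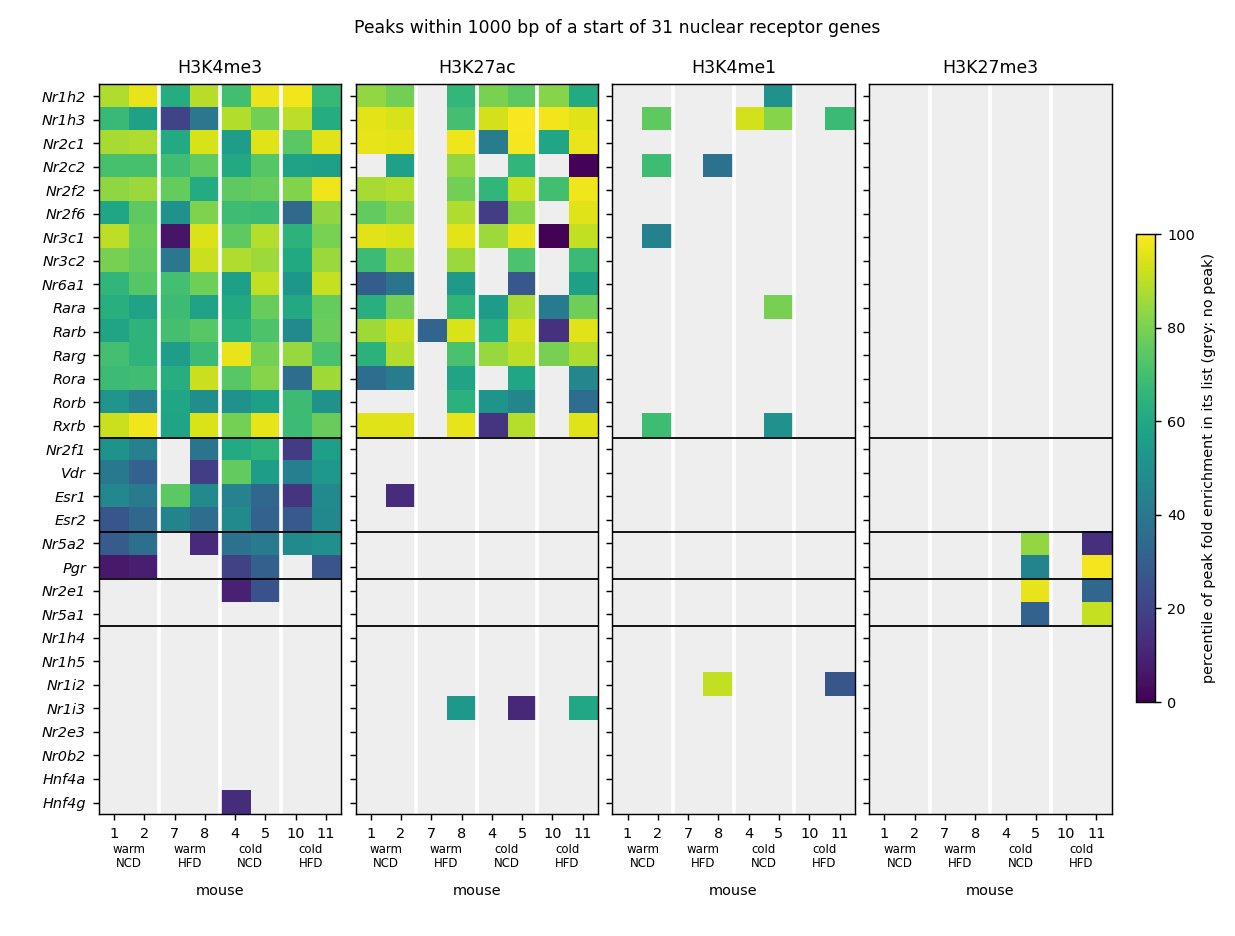
Peaks at the starts of the 31 genes (rows, grouped by class with black lines between classes) in the 8 mice (columns, grouped by condition) for each mark. Colour gives the percentile of the peak's fold enrichment within its own list and grey means no peak. H3K4me3 fills the upper rows in nearly every mouse, H3K27ac is nearly empty in mouse 7, and H3K27me3 appears at 4 genes in mice 5 and 11.

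The bases before a start show how far the classes differ in CpG content, the property that sets apart most broadly used promoters in mammals. Promoters of 28 of the 31 genes were matched in the RefSeq promoter table (GRCm38). The 250 bases before the RefSeq start are given 5′ to 3′, with each CpG in capitals, for 2 active genes (Rarb at chr14:16575477-16575726, minus strand, and Nr2c1 at chr10:94147681-94147930, plus strand), the mixed Pgr (chr9:8899583-8899832, plus strand) and 2 without any peak (Nr1h4 at chr10:89506659-89506908, minus strand, and Nr0b2 at chr4:133553126-133553375, plus strand).
Rarb: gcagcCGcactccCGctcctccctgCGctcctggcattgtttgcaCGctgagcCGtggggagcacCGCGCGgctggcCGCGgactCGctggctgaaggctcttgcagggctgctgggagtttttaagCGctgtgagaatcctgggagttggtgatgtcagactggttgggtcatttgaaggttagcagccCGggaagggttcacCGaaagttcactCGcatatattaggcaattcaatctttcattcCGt
Nr2c1: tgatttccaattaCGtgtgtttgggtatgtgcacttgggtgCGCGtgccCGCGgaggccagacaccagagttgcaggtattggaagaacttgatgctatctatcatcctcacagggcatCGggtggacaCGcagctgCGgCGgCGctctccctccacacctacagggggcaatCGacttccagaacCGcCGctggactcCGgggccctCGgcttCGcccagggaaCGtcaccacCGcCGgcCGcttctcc
Pgr: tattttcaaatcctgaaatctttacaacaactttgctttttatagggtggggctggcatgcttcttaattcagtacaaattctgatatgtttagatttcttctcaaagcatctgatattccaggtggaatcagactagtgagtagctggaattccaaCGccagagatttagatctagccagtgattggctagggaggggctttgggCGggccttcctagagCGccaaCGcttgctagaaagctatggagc
Nr1h4: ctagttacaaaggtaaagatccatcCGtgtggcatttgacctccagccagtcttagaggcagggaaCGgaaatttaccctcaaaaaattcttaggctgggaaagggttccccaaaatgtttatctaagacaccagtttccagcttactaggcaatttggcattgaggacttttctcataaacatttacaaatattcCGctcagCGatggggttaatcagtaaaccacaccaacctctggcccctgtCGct
Nr0b2: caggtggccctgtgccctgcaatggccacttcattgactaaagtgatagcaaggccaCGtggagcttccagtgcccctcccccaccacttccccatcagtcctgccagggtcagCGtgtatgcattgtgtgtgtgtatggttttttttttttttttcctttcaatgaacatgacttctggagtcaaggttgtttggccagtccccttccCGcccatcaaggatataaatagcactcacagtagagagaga
These stretches held 16 CpGs in Rarb and 20 in Nr2c1, against 4 in Pgr, 5 in Nr1h4 and 3 in Nr0b2. The Rarb stretch was reached by an H3K4me3 peak in 7 mice and by an H3K27ac peak in 6, as was that of Nr2c1. No peak of any mark reached the stretches of Pgr, Nr1h4 or Nr0b2. The peaks of Pgr lay downstream of this RefSeq start and, taken over mice together, covered its other annotated start, at position 8900468.

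Over whole promoters (300 bases, of which 50 follow the start, taking the richest promoter of each gene), the 7 matched unmarked genes had 2 to 7 CpGs with a median of 3. The median of all unmarked genes was also 3. The 14 matched active genes ran from 2 in Nr2f2 to 53 in Nr2f6, with a median of 19.5, beside 23 over all active genes. The CpG counts of unmarked and active receptor genes overlapped through Nr2f2 alone, whose matched promoter was the upstream start, with H3K27ac in 1 mouse, and not the start with H3K27ac in 7. Pgr with 6 and Nr5a2 with 7 lay below the middle 50% of all mixed genes, which ran from 15 to 31. The matched promoters of Nr5a2 did not include its start with H3K4me3 in 7 mice, so that its count is not that of the most often marked start.

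**Figure D2:**
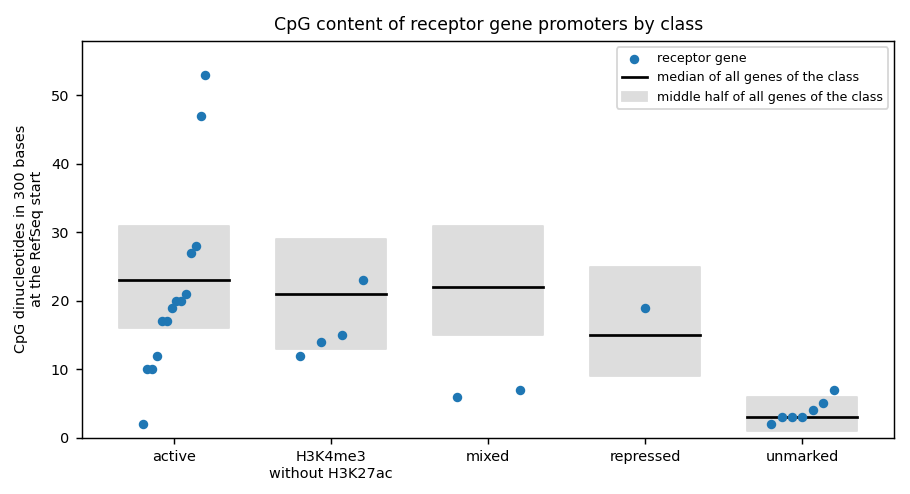
CpG dinucleotides in 300 bases at the RefSeq start (vertical axis) by class, with 1 point per receptor gene, a line at the median of all autosomal genes of the class and a grey band over their middle 50%. Unmarked receptor genes sit at 7 or below, and 4 of the 14 active ones lie below the band of their class.

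The 6-base motif AGGTCA, the core recognised by many of these receptors, was searched on both strands. At least 1 match was found in 5 of the 28 genes (17.9%) and in 16.4% of all genes matched, and 14.4% of the 19152 promoters searched held one. The genes were Nr1h4, Nr5a2, Nr6a1, Rara and Rarg. Rarb is a textbook target of its own ligand, and its promoter held the one match among the 28 genes to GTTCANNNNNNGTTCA, a direct repeat that was also searched on both strands because of that knowledge. Only 12 of the promoters searched held it (0.0627%). In Rarb the match began 52 bases before the RefSeq start. It is printed with the base before it (chr14:16575513-16575529, minus strand) and with the repeated letters in capitals.
Rarb repeat: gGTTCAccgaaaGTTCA
A match describes letters only, and overlaps between the motifs were not removed.

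Among the sensors of sterols and bile acids, the oxysterol receptors were active and the bile acid receptors were bare. Nr1h2 (LXRβ) and Nr1h3 (LXRα), which switch on cholesterol efflux and fatty acid synthesis, carried H3K4me3 in 8 of 8 mice and H3K27ac in 7, all but mouse 7. H3K4me3 fold enrichment at Nr1h2 (chr7:44549616-44553951) was lowest in mouse 7 at 5.91, had a median of 25.1 and was highest in mouse 5 at 134. At Nr1h3 (chr2:91184061-91202834) it was 3.68 in mouse 7, 20.8 at the median and 83.4 in mouse 5. Because fold enrichment differed this much between lists, its percentile within the list is used to place a peak. The median percentile of Nr1h3 was 64.5 for H3K4me3 and 95.1 for H3K27ac, so its acetylation peak ranked near the top of its lists. Nr1h3 was also the one receptor gene with H3K4me1 at a start in 4 mice (2, 4, 5 and 11). The region chr2:91201631-91203832, at the upstream end of Nr1h3, had H3K4me3 in 8 mice and H3K27ac in 7, but it also holds the starts of Acp2 and Gm13783, and its peaks cannot be assigned to 1 of these genes.

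Nr1h4 (FXR, the bile acid receptor), Nr1h5 (FXRβ, a pseudogene in humans) and Nr0b2 (SHP, a repressor induced by FXR) had no peak of any mark at any start in any mouse. Nr2e3 and Hnf4a were the other two such genes. Genes without any peak made up 16.1% of the receptor genes and 31.2% of all genes. Hnf4a is a master factor of hepatocytes, and Hnf4g, its relative of gut and kidney, had 1 H3K4me3 peak in mouse 4 at the 13.2 percentile of its list. Nr1i2 (PXR) and Nr1i3 (CAR), which sense drugs and other foreign compounds, had no H3K4me3. Nr1i3 had H3K27ac in mice 5, 8 and 11, with fold enrichments of 4.50, 4.96 and 5.69. These peaks lay at percentiles 11.6, 53.3 and 59.5 of their lists. Nr1i2 had H3K4me1 at its start in mice 8 and 11, and within the gene an H3K27ac region at chr16:38282163-38283177, 11.6 kb from the start and outside its exons, was present in 6 mice. Nr1i2 was the one unmarked gene with a body H3K27ac region in at least 4 mice.

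All retinoid receptor genes on the list were active. Rara, Rarb and Rarg encode the receptors for all-trans retinoic acid, and Rxrb encodes a shared dimerisation partner. Rarb was the one receptor gene with H3K27ac at a start in all 8 mice (3.23% of the list, beside 3.9% of all genes), mouse 7 included. Its H3K27ac fold enrichment was 4.14 in mouse 10, 10.4 at the median and 16.5 in mouse 5. A start of Rarb lies 58 bp from that of the antisense gene Gm48162 and one of Rxrb 150 bp from that of Slc39a7, so their peaks cannot be assigned to 1 gene.

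The marks differed between the starts of some genes. Rarg (chr15:102234938-102257517) has 2 starts. Both had H3K4me3 in 8 mice, but H3K27ac was present at the downstream one in 7 mice and at the upstream one in none. Rara had no peak at its first start, H3K4me3 in 8 and H3K27ac in 7 mice at its middle group of starts, and 7 and 4 mice at the last. Nr2f2 showed the same kind of pattern, with H3K4me3 and H3K27ac in 8 and 7 mice at the downstream start and in 6 and 1 mice at the upstream one. In Rora the upstream start had H3K27ac in 2 mice and the downstream start in 5.

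Of the steroid and vitamin D receptors, those for corticosteroids were active. Those for sex steroids and vitamin D had H3K27ac at a start in at most 1 mouse. Nr3c1 (the glucocorticoid receptor, chr18:39410545-39519421) had H3K4me3 in 8 and H3K27ac in 7 mice, with the H3K27ac peak at a median percentile of 94.0. Nr3c2 (the mineralocorticoid receptor, chr8:76899442-77245012) had H3K4me3 in 8 mice at a median fold enrichment of 32.4 and H3K27ac in 5 mice. The Nr3c2 window also holds the start of Gm10649, a lncRNA 849 bp away on the other strand. At Esr1 and Esr2 (oestrogen receptors α and β) every mouse showed H3K4me3, while H3K27ac was found in mouse 2 at Esr1 and in no mouse at Esr2. Vdr (the vitamin D receptor) and Nr2f1 had H3K4me3 in 7 mice, all but mouse 7, and no H3K27ac in any.

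Within the start windows, the H3K4me3 of these genes was weaker and narrower than that of the active genes by medians over mice. Median percentiles over mice were 34.3 for Esr2, 43.0 for Vdr, 45.5 for Esr1 and 50.9 for Nr2f1, whereas the 15 active genes ran from 51.6 (Rorb) to 88.7 (Nr1h2). The groups did not overlap on these medians, but they did in single mice, with Vdr as high as 76.1 and Nr3c1 as low as 5.49. Peaks had median widths of 443.5 to 958 bp at the 4 genes and of 1404.5 to 4606 bp at the active ones, which again did not overlap. In single mice widths did overlap, with up to 1974 bp at Nr2f1 and down to 245 bp at Nr2c2. These measures were not taken over all genes of the classes, so the difference is not set against theirs. Esr1 had a further H3K4me3 region inside the gene, at chr10:4711287-4714032 in 8 mice, which starts 1132 bp from an annotated start and therefore fell just outside the window. Its fold enrichment reached 42.1, above the highest of 14.9 at the starts themselves. This region, 2746 bp wide over all mice together, is left out of the percentile and width of Esr1 given above. The lack of overlap in medians with the active genes therefore holds for peaks in the windows only. A second such region at chr10:4837229-4838184, outside the exons, was present in 7 mice. Both regions of Esr1 also had H3K27ac in some mice. It was found at chr10:4712215-4713952 in mice 1 and 2 and at chr10:4837264-4838232 in mice 2, 5 and 8.

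H3K27me3 was found at the starts of 4 receptor genes, at each of them in mice 5 and 11 and in no other mouse. In mouse 5 and then mouse 11, the fold enrichments were 7.97 and 4.61 at Nr2e1 (TLX, a neural stem cell factor), 4.86 and 6.14 at Nr5a1 (SF-1, which drives steroid-producing glands), 6.45 and 3.91 at Nr5a2 (LRH-1, a relative in liver and gut) and 5.23 and 6.91 at Pgr (the progesterone receptor). Nr2e1 and Nr5a2 were higher in mouse 5, and Nr5a1 and Pgr in mouse 11. At Nr5a2 these mice did not share a marked start, with the mark near position 136953630 in mouse 5 and near 136949562 in mouse 11. At least 1 mouse, the limit used for the classes, had H3K27me3 at 12.9% of the receptor genes and at 7.25% of all genes. At least 2 mice had it at 12.9% and 1.39%. These shares are counted here and were not tested. Mice 5 and 11 were both cold and 1 was of each diet, and theirs were the 2 longest H3K27me3 lists. The part of list length in this pattern was not tested. Nr2e1 had H3K27me3 at further regions in its body, of which chr10:42579941-42581318 was present in mice 4, 5 and 11. Nr5a1 had one at chr2:38708891-38711207 in the same 3 mice.

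The mixed genes joined this mark to H3K4me3 at a low level. Nr5a2 had H3K4me3 in 7 mice at a median percentile of 37.8, chiefly at its most downstream start, where H3K4me3 was present in 7 mice. H3K27me3 was present at that start in mouse 11 alone. The most upstream starts of Nr5a2 had no peak of any mark. Pgr had H3K4me3 in 5 mice, with fold enrichments of 4.65, 4.52, 5.85 and 10.5 in the NCD mice 1, 2, 4 and 5 and of 5.497 in the HFD mouse 11. The H3K27me3 of Pgr covered chr9:8900053-8901283, which holds the second of its 2 annotated starts and reaches an exon. Nr2e1 had weak H3K4me3 in mice 4 and 5, the cold NCD mice, and its window also holds the start of Ostm1, 203 bp away.

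Of the receptors often called orphans, because their natural ligands are uncertain or unknown, Nr2c1, Nr2c2, Nr2f2, Nr2f6, Nr6a1, Rora and Rorb were active. Nr2f1, Nr2e1, Nr2e3, Nr5a1, Nr5a2, Nr0b2, Hnf4a and Hnf4g were not. Nr2c1 and Nr2c2 (TR2 and TR4) showed H3K4me3 in every mouse. H3K27ac was present at Nr2c1 in 7 mice and at Nr2c2 in 4. The latter were mice 2, 5, 8 and 11, which is 1 mouse of each condition, with fold enrichments of 7.27, 8.42, 7.93 and 2.75. Nr2f2 (COUP-TFII, a regulator of fat cell and vascular development) had H3K4me3 peaks with a median width of 4606 bp, the widest of the 31 genes, while its relative Nr2f1 (COUP-TFI) lacked H3K27ac. Nr2f6 (EAR2) had H3K27ac in 6 mice, Nr6a1 (GCNF, a germ cell factor) and Rora in 5, and Rorb in 4. Rora and Rorb bind DNA as monomers, and Rora works in the circadian clock. Nr6a1 had an inner H3K4me3 region at chr2:38823184-38824553 in all 8 mice, which holds the start of its antisense gene Nr6a1os, and an H3K27ac region at chr2:38873672-38875456 in 7.

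The design asks whether temperature or diet moved these marks. No receptor gene had a peak of any mark in all 4 mice of one temperature or diet and in none of the other. The same was rare over all genes with a peak, at 0.0436% for H3K4me3 by temperature and 0.182% by diet (23 receptor genes with a peak), and at 0.123% and 0.104% for H3K27ac (17 genes). For H3K4me1 (7 genes) it was 0% and 0.0611%, and for H3K27me3 (4 genes) 0% by both. With 4 mice against 4, such a split has a two-sided exact Fisher p of 0.0286, the smallest possible, and cannot pass an adjustment over all genes. The nearest to a split was Pgr, with H3K4me3 in 4 of 4 NCD and 1 of 4 HFD mice (Fisher's exact test, two-sided, unadjusted p = 0.143). Without mouse 11 it would be 4 of 4 against 0 of 3. The muscle marker Acta1 was split by diet in the same direction, and the part of muscle tissue in the Pgr values was not tested. The HFD mice without the Pgr peak, 7, 8 and 10, had the shortest H3K4me3 lists. These held 13517, 19079 and 17195 peaks, against 20304 or more in the mice with it. The part of list length in the Pgr values was not tested either. H3K4me3 peaks stood at 17 receptor genes in mouse 7, 20 in mice 8 and 10, 21 in mice 1, 2 and 11, 22 in mouse 5 and 23 in mouse 4. H3K27ac stood at 1 gene in mouse 7 and 8 in mouse 10, against 11 to 16 in the other 6 mice. Over all genes, mouse 7 had H3K27ac at 4.02% and mouse 10 at 19.6%, so the 2 lowest values for the receptor genes were those of the mice lowest over all genes.

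H3K4me3 levels could be compared at the 17 receptor genes with a peak in all 8 mice (54.8% of the list, beside 44.4% of all genes). Before normalisation, mouse 7 had the lowest fold enrichment at 16 of the 17 and mouse 5 the highest at 15. Log2 fold enrichment was therefore quantile normalised between lists before limma was fitted over 9230 genes. On that scale the medians ran from 4.92 at Nr1h2, 4.81 at Rxrb and 4.81 at Nr2c1 down to 3.65 at Rorb, 3.33 at Esr1 and 2.92 at Esr2. Neighbours in this order overlapped in their ranges over mice, and the ranges of Nr1h2 (3.88 to 5.46) and Esr2 (2.31 to 4.31) overlapped too. These are levels of called peaks and not of transcripts.

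**Figure D3:**
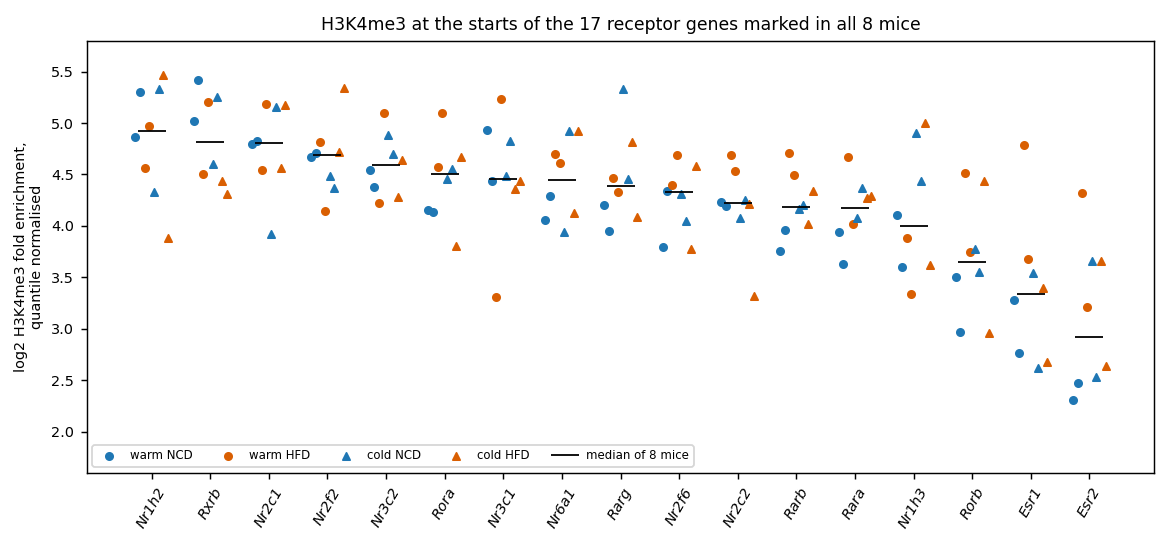
Quantile-normalised log2 fold enrichment of H3K4me3 (vertical axis) at the 17 receptor genes with a peak in all 8 mice, ordered by median (black bars). Circles are warm and triangles cold mice, blue NCD and orange HFD, and the 4 conditions are intermixed at most genes.

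No receptor gene and none of the 9230 genes (0%) differed by temperature or by diet in H3K4me3 level (limma, adjusted p under 0.05). At an unadjusted p under 0.05, 1 of the 17 receptor genes and 5.64% of all genes differed by temperature, and 0 of the 17 and 5.67% of all genes by diet. The receptor gene was Nr1h3, with normalised log2 values of 4.90, 4.44, 5.00 and 3.62 in the cold mice 4, 5, 10 and 11 and of 4.11, 3.60, 3.88 and 3.34 in the warm mice 1, 2, 7 and 8. The groups overlapped through mouse 11. The mean was 4.49 ± 0.63 (SD, n = 4) in the cold and 3.73 ± 0.33 (SD, n = 4) in the warm, a log2 difference of 0.76 with a standard error of 0.35 (limma, unadjusted p = 0.0411, adjusted p = 0.867). For diet, Esr2 had the lowest p of the 17 genes, with 3.45 ± 0.71 (SD, n = 4) on HFD and 2.74 ± 0.62 (SD, n = 4) on NCD (limma log2 difference 0.71, standard error 0.39, adjusted p = 0.857). The values were 4.31, 3.21, 3.65 and 2.64 in the HFD mice 7, 8, 10 and 11 and 2.31, 2.47, 3.66 and 2.53 in the NCD mice 1, 2, 4 and 5, which overlap.

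Cold minus warm was above 0 at 8 of the 17 genes, with a median log2 difference of -0.0026, beside 0.0092 over all genes, and with median centring in place of quantile normalisation at 6 genes, with a median of -0.14. HFD minus NCD was above 0 at 11, with a median of 0.20, beside -0.0076 over all genes. That median was 0.10 with median centring and 0.066 with −log10 p in place of fold enrichment, and fell to 0.092 without mouse 8. No interaction of temperature and diet was called at any of the 17 receptor genes or the 9230 genes (limma), where 0 and 403 had an unadjusted p under 0.05. The lowest adjusted p of a receptor gene was 0.937.

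**Figure D4:**
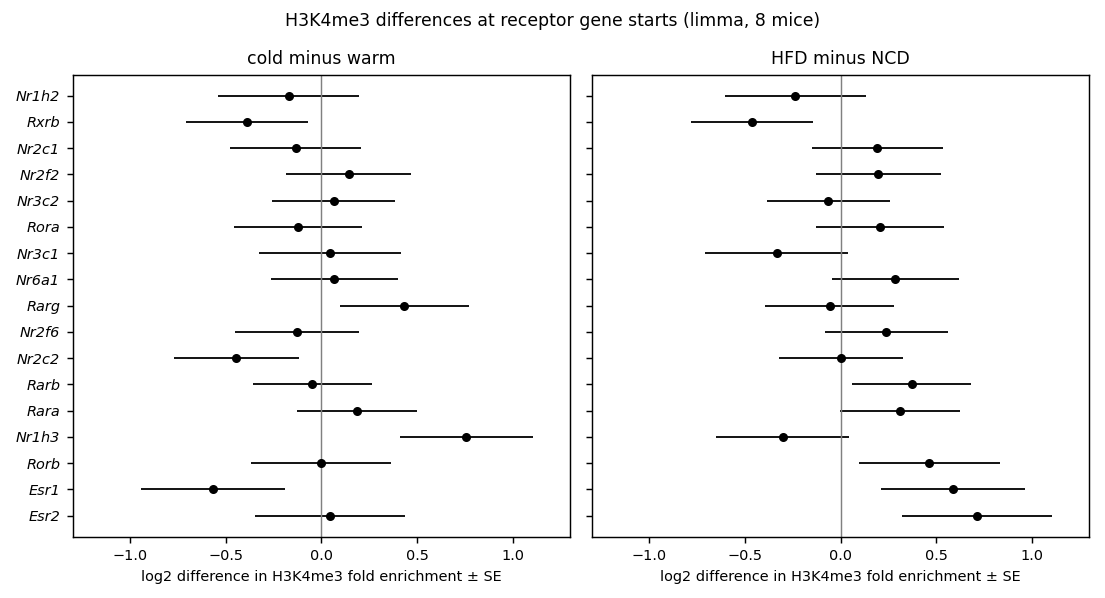
Log2 differences in normalised H3K4me3 fold enrichment (horizontal axis, points, with bars of 1 standard error) for cold minus warm and HFD minus NCD at the 17 receptor genes, ordered as in the plot of levels. Nr1h3 lies farthest to the right for cold, at 0.76, and Esr2 for diet, at 0.71.

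For H3K27ac at starts, a fit over all 8 mice held Rarb alone of the receptor genes among 811 genes, since mouse 7 had few peaks. Its log2 difference was -0.28 with a standard error of 0.30 for cold minus warm (limma, adjusted p = 0.912), or -0.033 without mouse 10, and 0.051 with a standard error of 0.30 for HFD minus NCD (adjusted p = 0.976). No gene of the 811 was called for either factor (0%), and 28 and 62 had an unadjusted p under 0.05 for temperature and diet. Without mouse 7, 8 receptor genes entered among 3675 genes, and again none was called (limma, 0%), with 272 and 183 genes at an unadjusted p under 0.05. The differences for cold minus warm then ran from -0.55 at Nr3c1 to 0.65 at Nr1h3, whose unadjusted p was 0.0577 (limma, adjusted p = 0.666).

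H3K27ac inside gene bodies, outside the start windows, was found in at least 1 mouse at 16 of the 31 genes, beside 7276 of all 20807 genes. The part of a start peak that reached past its window was counted here too. Nr2c1 and Nr2f6, with body H3K27ac in 5 mice each, had no H3K27ac region apart from those at their starts. The same was true of Rxrb, which had 5 bp in mouse 8 alone. Nr1h4 and Nr5a2 had 200 and 286 bp in mouse 11 alone, the mouse with the longest H3K27ac list. Rarb (chr14:16430839-16819156) and Nr3c1 had the most, with medians of 7.12 kb and 7.04 kb under peaks, followed by Rora with 3.95 kb, Rarg with 2.53 kb, Rara with 1.99 kb and Nr1h3 with 1.77 kb. As a share of the gene the order was another: peaks covered a median of 11.2% of Rarg, 9.51% of Nr2f2, 9.43% of Nr1h3 and 6.47% of Nr3c1, but 1.83% of Rarb and 0.538% of Rora. The one recurrent region of Nr1h3 is that with the starts of Acp2 and Gm13783, so its share cannot be assigned to Nr1h3 alone. These shares place the acetylated bases of long genes beside those of short ones. Kilobases and shares both include start peaks where they reach past the windows. At Nr3c1 these include much of the start region chr18:39480553-39487466, 6914 bp wide over all mice together. The part of such peaks in the order of the genes was not tested. Nr1h2, Nr2c2 and Rorb were active at their starts and had no H3K27ac in the body in any mouse.

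Regions recurring in at least 4 mice within gene bodies numbered 23 for H3K27ac, in 10 genes. Rora (chr9:68653786-69388246) held the only one present in all 8 mice, at chr9:68756387-68757103, 102.6 kb from the nearest start. H3K4me1 was present over nearly the same bases in 4 of those mice. Rarb held 6 such regions, the most frequent at chr14:16482788-16484940 in 7 mice, 90.6 kb from its nearest start. Its region at chr14:16553891-16555530 had H3K27ac in 6 mice and H3K4me1 in 4, the pair of marks typical of an enhancer. Nr3c2 had H3K27ac in 6 mice and H3K4me3 in 5 at chr8:77132695-77133527, 224.4 kb from the nearest start.

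**Figure D5:**
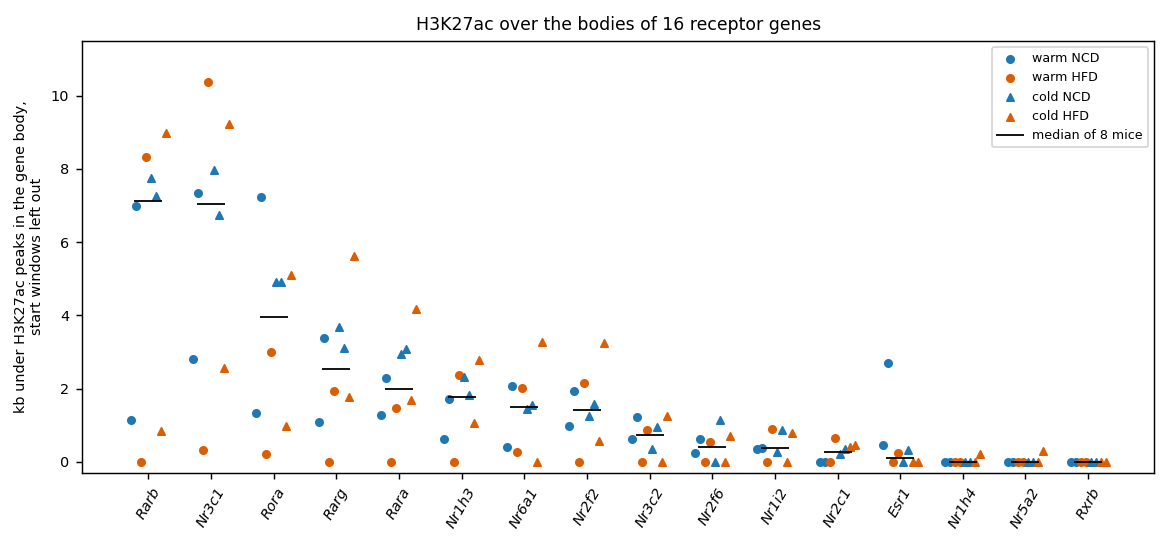
Kilobases under H3K27ac peaks in the gene body outside the start windows (vertical axis) at the 16 receptor genes with any, ordered by median (black bars). Circles are warm and triangles cold mice, blue NCD and orange HFD. Mouse 7, a warm HFD mouse, is at or near 0 throughout.

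Since lists differed in length, body H3K27ac was compared as the share (ppm) of all H3K27ac bases that a list had in gene bodies. Rora was the one receptor gene whose groups did not overlap. It had 304, 567, 342 and 382 ppm in the NCD mice 1, 2, 4 and 5 and 259, 235, 202 and 274 in the HFD mice 7, 8, 10 and 11. All HFD values were thus below all NCD values, with means of 243 and 399 (exact permutation test, two-sided, p = 0.0286, the smallest possible, and adjusted p = 1 over the 7276 genes with any). Over those genes, 2.08% were lower on HFD without overlap, and the 1 of 16 receptor genes is read against that share. The other direction held 0.289% of genes for diet, and 3.41% and 0.618% were higher and lower in the cold, with no receptor gene in any of these. With the start windows included, or in bases without scaling, the Rora groups overlapped. The difference of -156.3 ppm became -100.1 ppm without mouse 2, the NCD mouse at 567 ppm. Of the HFD values for Rora, those of mice 7 and 10 rest on 206 and 975 bp under peaks, against 1329 bp or more in the other mice.

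The genes that work with the receptors were described in the same way from 3 lists. Of 22 coregulators and chaperones, 21 were active and 1 (Crebbp, an acetyltransferase, with H3K4me3 in 8 mice and H3K27ac in 2) had H3K4me3 without H3K27ac. Ncor1, a corepressor, and Ncoa4 had both marks in all 8 mice. Of 22 genes that make or break down ligands, 4 were active, 3 had H3K4me3 without H3K27ac, 3 were mixed, 5 repressed and 7 unmarked. Cyp27a1 and Rdh10, which make an oxysterol and retinal, had H3K4me3 in 8 and H3K27ac in 7 mice. Cyp24a1, which breaks down vitamin D, had neither mark and H3K27me3 in 2 mice, and Cyp7a1, the rate-limiting enzyme of bile acid synthesis, had no peak. H3K27me3 was present in at least 1 mouse at 8 of these 22 genes, beside 7.25% of all genes. Of 17 known target genes, 10 were active, 1 had H3K4me3 without H3K27ac, 1 was mixed, 1 repressed and 4 unmarked. Per1 had H3K4me3 and H3K27ac in 8 mice and Abca1, the LXR-driven cholesterol exporter, in 8 and 7, whereas the FXR target Abcb11 and the PXR target Cyp3a11 had no peak.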

How the data were processed

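Histone marks were measured by ChIP-seq in brown adipose tissue of 8 mice, with replicates numbered by the mouse that each label names. The methods leave room for tissue of 2 mice in 1 sequencing experiment, and in that case p-values measure the spread between such samples. Per the methods, the authors trimmed reads with cutadapt, aligned them to GRCm38 with bowtie2 and called peaks with macs2 against input. Neither versions nor thresholds are stated in the sources used here, and in the deposited lists −log10 q began at 1.30. Each deposited peak carries a fold enrichment, a ratio to local background, and −log10 p and q values, all computed by the authors within 1 library, so that depth and peak calling of each library enter them. Peaks were called per library and were not pooled. The 8 inputs were not used here other than through the lists.

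Starts came from GENCODE M21 basic transcripts (GRCm38), with coordinates counted from 1. A peak counted when at least 1 base lay within 1000 bp of a start, and the highest fold enrichment gave the level. All peaks lay inside the lengths of the 21 chromosomes compared. Classes are defined in the report, where H3K27me3 needed 1 mouse because most of its lists were short. Presence was compared by Fisher's exact test. Levels of genes with a peak in all 8 mice were compared with limma 3.58.1 in R 4.3.3, with temperature and diet as additive terms, and the interaction was fitted separately. Gene body shares were compared by an exact permutation test over 70 assignments. Adjustment was by Benjamini-Hochberg over all genes fitted, at 0.05. The procedures were first tested on simulated data. Other work used Python 3.11.15, pandas 2.3.3 and scipy 1.17.1.

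All 31 receptor genes were named whatever their values. From each of 3 further lists at most 4 genes were named, those with the most and the fewest mice with H3K4me3 or H3K27ac (summed, ties broken by list order), and the 1 coregulator outside the active class. The members, lists, classes and alternatives were chosen with earlier results of these data known. The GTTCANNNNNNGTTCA search, the full-annotation alternative and the alternative without mice 7 and 10 were added after the data were seen. Promoters were taken from RefSeq. Tsc22d3 of the target list is not autosomal and was left out, which left 17 target genes. The sequence of Nr3c1 is not printed.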

Additional observations from a re-analysis of the deposited data

Results flagged for a closer look

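Among 36 sets of mice examined, 4 held 1 mouse that stood apart from the rest by Dixon's criterion, where chance gives about 1 in 20 sets, or 1.8. H3K27me3 stood at 4 receptor genes in mouse 11 and at 0 in the other HFD mice. The same held for mouse 5 among the NCD mice, at 4 against 0. With 0 in all other mice of a set, any count is flagged by this rule, so these flags add nothing to the counts. The sets also share mice, so the number of flags cannot be weighed against that given by chance. Mice 5 and 11 had the longest H3K27me3 lists, and the part of list length was not tested. The normalised log2 H3K4me3 level of Nr2c2 was 3.32 in mouse 11 and 4.08 to 4.69 in the other 7 mice. That of Nr3c1 was 3.31 in mouse 7 and 4.36 to 5.24 in the other 7 mice, mouse 7 being the mouse with the fewest H3K4me3 peaks.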

How the results depend on the processing

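Windows of 500 or 2000 bp, summits in place of overlap, a −log10 q of at least 5, protein-coding or all annotated transcripts, other limits on the number of mice and leaving out each mouse left the class of most receptor genes as it was. At a −log10 q of at least 5, 1 gene was mixed (Pgr became repressed), H3K27ac at Nr2c2 and Nr6a1 fell below the limit of 4 mice, and 2 genes had H3K4me1. Requiring 6 mice gave 9 genes with H3K4me3 without H3K27ac and 1 mixed gene. Requiring 2 left 1 repressed gene, since Nr2e1 became mixed. With all annotated transcripts, 11 genes had H3K4me1. Within 2000 bp Nr2f2 became mixed, and with H3K27ac counted along the body Esr1 became active. Leaving out single mice gave 13 to 15 active genes and 4 to 6 with H3K4me3 without H3K27ac, since Nr2c2 lost its class without mouse 2, 5, 8 or 11 and Rorb without mouse 4, 5, 8 or 11. Presence of H3K4me3 then separated the diets at 0 to 1 gene (Pgr, without mouse 11), and the share over all genes was not counted with a mouse left out.

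In the limma fits no receptor gene was called under any alternative. Over all genes, H3K4me3 by diet gave 2 calls with −log10 p and 1 at a −log10 q of at least 5. The cold difference of Nr1h3 ran from 0.46 to 1.08 with single mice left out (lowest without mouse 10) and that of Esr2 by diet from 0.46 to 1.07. The cold difference of Rarb H3K27ac ran from -0.41 to -0.033 (without mouse 10). Its diet difference, near 0, turned to -0.19 with a peak in at least 6 mice and ran from -0.080 to 0.29 with single mice left out. With single mice left out, body H3K27ac did not overlap at 0 to 2 receptor genes by temperature and 1 to 4 by diet. The most were found without mouse 8 for temperature and without mouse 4 for diet. Smaller groups separate more readily, and the share over all genes was not counted with a mouse left out. These counts are therefore not read as a result about the receptor genes. By diet, body H3K27ac did not overlap at 0 receptor genes with start windows included (Rora difference -108.8 ppm, against -156.3) and at 0 in unscaled bases.

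No paired analysis was possible because the conditions compared share no mouse numbers. Short H3K4me1 and H3K27me3 lists limit what their absence shows, and read depth is unknown.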
